A study of Homo sapiens with 15 samples.

Results

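Senescent IMR90 fibroblasts in which thioredoxin reductase 1 (TXNRD1) was inhibited with a short hairpin or with the compound TRi-1 were compared gene by gene, and the quantity examined was the hairpin effect minus the TRi-1 effect. The hairpin effect is the log2 change from the senescent control to the shTXNRD1 libraries, and the TRi-1 effect is the log2 change from DMSO to the TRi-1 libraries. Every Ensembl gene row that passed a count filter was a member, which gave 15994 of the 57736 genes in the table, and 12 of the 15 libraries entered the difference. IMR90 is a human fibroblast line, established from fetal lung. The 4 groups of 3 libraries were the senescent control, shTXNRD1 hairpin cells, cells given DMSO (the vehicle) and cells given TRi-1, also written Tri-1. Senescence is shared by all of them, and 3 libraries of growing cells entered the count filter and the estimate of the spread but not the difference. How the cells were made senescent, whether the control carried a hairpin or vector, how many hairpins were used, the dose and duration of TRi-1 and whether replicates were separate cultures are not given in the labels. Spread between libraries, which may be technical, is thus what the p-values rest on.

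TXNRD1 is the cytosolic selenoprotein that uses NADPH to reduce thioredoxin, which in turn reduces disulfides in ribonucleotide reductase, peroxiredoxins and transcription factors. A hairpin lowers the mRNA and with it the protein, whereas TRi-1 is a covalent inhibitor directed at the enzyme itself. Senescent fibroblasts stop dividing and secrete interleukins, chemokines, growth factors and proteases, and cytosolic DNA sensing through cGAS and STING feeds NF-kB and interferon signalling in them.

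The 12 senescent libraries held 18033076 to 28909046 counts with a median of 20648593, and replicates of a group differed by more than sampling noise. That spread was unequal between groups. The mean chi-square per gene between 2 libraries of a group, a measure relative to sampling noise, was 13.5 to 50.2 for shTXNRD1 and 1.84 to 3.28 for TRi-1. The fit gives each gene a single spread for all groups, so the numbers called in the arms do not compare the treatments alone. Levels are given as CPM, a gene's counts relative to the TMM-scaled size of its library, changes as log2 values with standard errors (SE), and "called" means an adjusted p under 0.05 in edgeR's quasi-likelihood test with Benjamini-Hochberg adjustment. The hairpin effect and the TRi-1 effect have no library in common. Each difference therefore rests on both controls. Senescent DMSO libraries differed from the senescent controls in 2595 genes (16.2% of those tested). The DMSO minus control value, or the level of both controls, is therefore given beside several of the named genes. Fibroblast markers dominated every group, with a summed level of 11166 to 18848 CPM over 8 markers. In bulk RNA, fewer cells of a type and less RNA per cell cannot be told apart.

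The targeted transcript itself separated the inhibitions. TXNRD1 stood at 506, 511 and 528 CPM in the senescent controls and at 21, 21.6 and 25.3 CPM with the hairpin. It stood at 430.2, 399 and 395 CPM in DMSO and at 429.6, 420.4 and 443 CPM with TRi-1. All hairpin libraries lay far below all others, while the DMSO and TRi-1 libraries overlapped. The hairpin effect was -4.51 ± 0.08 and the TRi-1 effect 0.08 ± 0.07, so that the difference was -4.59 ± 0.11 (adjusted p = 6.00e-12). With the GC offset described below the TRi-1 effect was 0.15 and was called (adjusted p = 1.93e-04). TRi-1 acts on the protein, so the transcript level is no check of that treatment.

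The difference was called in 6662 of 15994 genes (41.7%), of which 3538 (22.1%) had the higher value with the hairpin and 3124 (19.5%) the lower one. Of these, 2214 (13.8%) were past 2-fold, 953 higher (5.96%) and 1261 lower (7.88%). At an unadjusted p under 0.05 the number was 7932 (49.6%). The hairpin effect was called in 8105 genes (50.7%), 4134 higher (25.8%) and 3971 lower (24.8%). The TRi-1 effect was called in 3176 genes (19.9%), 1222 higher (7.64%) and 1954 lower (12.2%). Leaving out a single library lowered the count of genes higher with TRi-1 to 772 to 799 for DMSO 1 and each of the TRi-1 libraries. Without shTXNRD1 library 3, which is no part of the TRi-1 effect, TRi-1 calls numbered 1537 higher and 2349 lower. The hairpin changes were wider, with an SD of 0.837 on the log2 scale across genes against 0.518 for TRi-1, and 81.0% of the genes with a called difference had the larger absolute change with the hairpin. The 3 hairpin and 3 control libraries did not overlap in 8864 genes (55.4%), and the TRi-1 and DMSO libraries in 7786 (48.7%), so a lack of overlap in a single arm is common.

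Both effects were called in 2154 genes (13.5%). They had the same direction in 1303 of these (8.15% of genes tested), 435 higher and 868 lower in both, and opposite directions in 851 (5.32%). The same-direction genes made up 16.1% of the hairpin calls and 41.0% of the TRi-1 calls, and the opposite genes 10.5% and 26.8%. Over all genes tested, TRi-1 was called higher in 7.64% and lower in 12.2%, and the hairpin in 25.8% and 24.8%. The shares of opposite genes lie near these, so their number alone is not a result about disagreement. The opposite genes divided into 528 that rose with the hairpin and fell with TRi-1 and 323 that did the reverse. Their count was 525 without DMSO 1, 560 without TRi-1 library 1 and 562 without TRi-1 library 2. A further 4253 genes were called with the hairpin and in the difference but not with TRi-1, and 638 were called with TRi-1 and in the difference but not with the hairpin, a count that was 382 without DMSO 1 and 418 without TRi-1 library 2. Close agreement was counted where both effects were called in one direction and the 95% interval of the difference lay within 1.5-fold. It held for 586 genes (3.66%), 286 higher and 300 lower. Across all genes the log2 changes had a Pearson correlation of 0.088 and a Spearman correlation of 0.017, a description over genes that share libraries and depth.

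**Figure D1:**
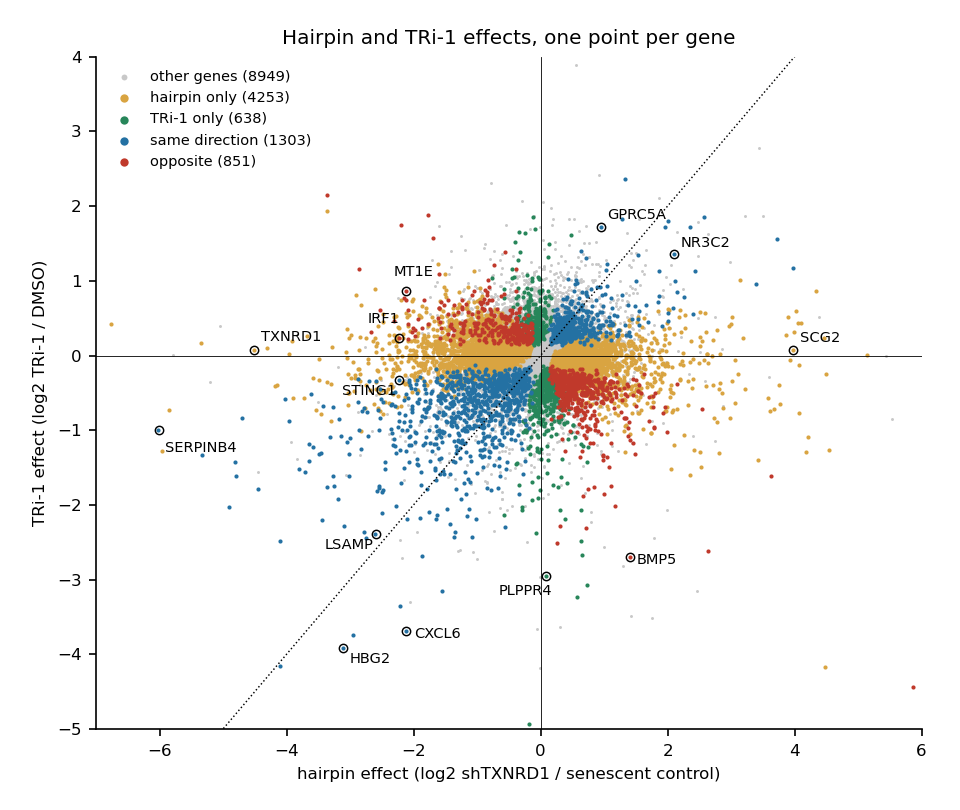
Hairpin effect (x axis, log2 shTXNRD1 over senescent control) against TRi-1 effect (y axis, log2 TRi-1 over DMSO) for each of 15994 genes, coloured by which effects were called; the dotted line marks equal effects, circles mark named genes, and 29 genes lie outside the plotted range. The 4253 hairpin-only genes spread along the horizontal axis, and the 851 opposite genes fill the upper left and lower right of the plot.

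GC content moved with the difference. Genes with the higher value under the hairpin had a median transcript GC content of 42.9%, those with the lower value 51.7% and all genes tested 47.7%. Across genes the Spearman correlation of transcript GC was -0.312 with the hairpin effect, 0.323 with the TRi-1 effect and -0.415 with their difference. The opposite genes split in the same way, with a median of 42.5% for those up with the hairpin and 51.9% for those down. The libraries themselves differed in this respect. All 3 TRi-1 libraries lay towards GC-rich genes (Spearman correlation of gene GC with the library's deviation from the mean of 0.457 to 0.545), and the shTXNRD1 libraries ranged from -0.524 to 0.156.

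With a GC term fitted as an offset in each library, the difference was called in 3466 genes higher and 4368 lower, and 5511 (82.7%) of the original calls were still made in the same direction. The TRi-1 effect was then called in 2752 genes higher and 2654 lower, which moved the share of higher calls from 38.5% to 50.9%. Same-direction genes numbered 2490 and opposite genes 1582 in that fit. The difference of a named gene is therefore given with its GC-offset value where the offset ended or made the call or moved it by more than 1.5 times. TRi-1 effects that were not called without the offset were called with it for ARHGAP25 (-0.41), BIRC5 (-0.32), IDI1 (0.30), HMGCS1 (0.18), SLC7A11 (0.26), SLC30A1 (0.24) and ICAM1 (-0.21), all of which are described below. Without the libraries of 3 groups that leaned most towards low GC (senescent control 3, shTXNRD1 3 and DMSO 1), an alternative chosen after seeing the data, the Spearman correlation of GC with the difference was -0.286. The part of GC content in the result was not tested otherwise.

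**Figure D2:**
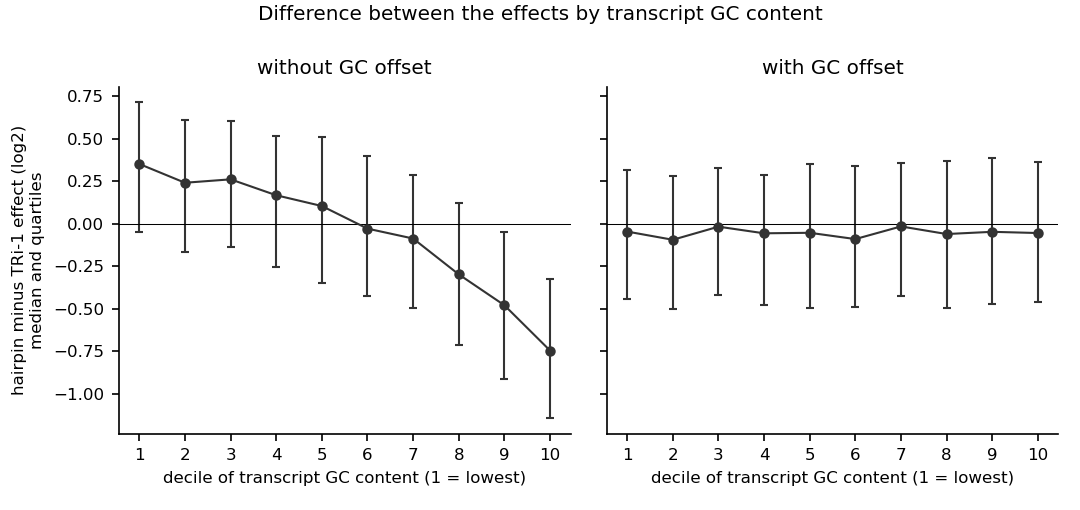
Median and quartiles (bars) of the hairpin effect minus the TRi-1 effect, in log2 units, in 10 equal bins of transcript GC content, without (left) and with (right) a GC offset in each library. Without the offset the median falls from 0.35 in the lowest bin to -0.75 in the highest, and with it every bin's median lies between -0.09 and -0.02. The offset is fitted on transcript GC itself, so the flat medians on the right follow from its construction and test nothing. It would also take out a treatment effect that followed GC content.

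Among the genes most reduced by the hairpin relative to TRi-1, several were nearly silent with the hairpin. SERPINB4, a serine protease inhibitor of squamous epithelia whose near-identical neighbour SERPINB3 can share its reads, stood at 33, 33 and 33.5 CPM in the controls and at 0.25, 0.569 and 0.694 CPM with the hairpin. It stood at 20.7, 19.7 and 19.3 CPM in DMSO and at 10.4, 9.38 and 10.2 CPM with TRi-1. SERPINB4 fell in both arms without overlap, by 6.02 and 0.99 on the log2 scale, and the difference was -5.02 ± 0.23 (adjusted p = 1.53e-08). LRRC15, a membrane protein of activated fibroblasts, showed the same order at a higher level. Its values were 154, 161 and 153 CPM in the controls and 9.45, 9.67 and 9.51 CPM with the hairpin, against 131, 143 and 145 CPM in DMSO and 92, 91.6 and 95.2 CPM with TRi-1. LRRC15 fell in both arms, with a difference of -3.44 ± 0.08.

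Other genes at this end were divided in their TRi-1 effects. DKK2, a secreted antagonist of Wnt signalling, had means of 9.21 and 0.818 CPM for control and hairpin and of 12.5 and 12.1 CPM for DMSO and TRi-1 (difference -3.45). ARHGAP25, a GTPase-activating protein for Rac, went from 15 to 0.833 CPM with the hairpin and had a TRi-1 effect of -0.40 (adjusted p = 0.0603). SERPINA9, another serine protease inhibitor, fell in both arms, by 4.69 with the hairpin and 0.84 with TRi-1. RAB43, a small GTPase of vesicle transport, had a difference of -4.40 ± 1.24, which limma-voom did not call (adjusted p = 0.0616). FRG2FP, a pseudogene with near-identical copies, had no count in the hairpin libraries and was at least 95.8-fold lower there than in the controls, on a floor of 3 counts over the group. It also fell with TRi-1, by 0.97.

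At the other end stood genes that were low in 3 groups and rose with the hairpin. SCG2, a granin of secretory vesicles, stood at 1.18, 1.58 and 1.75 CPM in the controls and at 21.3, 22.5 and 27.1 CPM with the hairpin. Its DMSO values were 1.81, 1.42 and 1.81 CPM and its TRi-1 values 1.78, 1.89 and 1.69 CPM. The hairpin libraries stood apart from all others, the DMSO and TRi-1 libraries overlapped, and the difference was 3.90 ± 0.23 (adjusted p = 3.03e-08). F11R, a junctional adhesion molecule, rose from a mean of 4.53 to 32 CPM with the hairpin, with 5.64 and 4.34 CPM in DMSO and TRi-1. KDR, the main VEGF receptor of endothelium, went from 0.471 to 8.24 CPM, and ID4, an inhibitor of helix-loop-helix transcription factors, from 0.311 to 4.4 CPM. Neither KDR nor ID4 was called with TRi-1.

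KDR and EPCAM are markers of other cell types, so the whole marker lists were read beside them. The summed level of 5 endothelial markers was 158 to 171 CPM in the controls and 105 to 133 CPM with the hairpin. It was 83.2 to 90.3 CPM in DMSO and 51.5 to 54.3 CPM with TRi-1, and TEK made up most of it. CDH5 had 11 counts and ERG 0 counts in the 3 hairpin libraries together. Epithelial markers summed to 49.7 to 55.1 CPM in the controls and 54.7 to 66.8 CPM with the hairpin. They summed to 45.1 to 47.6 CPM in DMSO and 56.1 to 56.7 CPM with TRi-1. KRT5 and SFTPC had 0 counts in all groups, and EPCAM rose from 1.08 to 3.63 CPM with the hairpin. Leukocyte markers summed to 71.9 to 79.9 CPM in the controls, 18.7 to 37.9 CPM with the hairpin, 56.1 to 73.5 CPM in DMSO and 90.7 to 92.7 CPM with TRi-1. Nearly all of that sum was CD68, a lysosomal glycoprotein also made by fibroblasts, while CD3E had 0 counts in every group.

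Another kind of large difference came from genes that fell with TRi-1 alone. PLPPR4, a neuronal relative of the lipid phosphatases, had hairpin arm means of 7.6 and 8.08 CPM, and fell from 12.1 to 1.57 CPM with TRi-1 (difference 3.04 ± 0.18). HAPLN1, a link protein that binds hyaluronan to proteoglycans, fell with TRi-1 by 3.23 and had a hairpin effect of 0.58 (adjusted p = 0.0511). LMNB1, the lamin whose loss is a senescence marker, was 12.2, 10.9 and 10.7 CPM in DMSO and 5.75, 6.79 and 6.13 CPM with TRi-1. Its control values were 6.2, 5.64 and 5.8 CPM and its hairpin values 5.15, 6.56 and 6.49 CPM. TRi-1 thus fell from DMSO without overlap, the hairpin arm overlapped, and the difference was 0.90 ± 0.15. DMSO itself lay 0.93 above the senescent control for this gene, and the TRi-1 level was close to that of the control.

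Among the genes of opposite direction was BMP5, a secreted bone morphogenetic protein. BMP5 stood at 10.3, 9.34 and 11 CPM in the controls and at 25, 25.5 and 31 CPM with the hairpin. Its level was 11, 9.28 and 9.63 CPM in DMSO and 1.53, 1.62 and 1.48 CPM with TRi-1. The untreated levels were alike (DMSO minus control -0.03), the hairpin libraries were all higher and the TRi-1 libraries all lower, and the difference of 4.10 ± 0.16 (adjusted p = 5.67e-10) was called in each of 23 refits. POSTN, the matrix protein periostin, behaved likewise from unequal starting levels. It stood at 59.1, 60.3 and 61.9 CPM in the controls and 108, 120.2 and 132 CPM with the hairpin, against 118, 108 and 105 CPM in DMSO and 32.5, 29.9 and 29.2 CPM with TRi-1. POSTN rose with the hairpin and fell with TRi-1 with no overlap in either arm, with a difference of 2.85 ± 0.11, although DMSO was already 0.87 above the control.

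Decorin (DCN), a small proteoglycan of the same matrix, rose from a mean of 557 to 1013 CPM with the hairpin and fell from 282 to 147 CPM with TRi-1 (difference 1.80 ± 0.12). DMSO was thus already well below the control for DCN, and the arms started from unlike levels. Other genes that rose with the hairpin and fell with TRi-1 were of several kinds. BCL2L11, which encodes the death-promoting protein BIM, had effects of 1.99 and -1.02. IL18R1, a chain of the interleukin 18 receptor, had 1.38 and -1.08. LPAR6, a receptor for lysophosphatidic acid, had 1.08 and -1.5, and ZNF711, a zinc finger protein, had 1.05 and -1.36. The pseudogene VNN3P had 1.41 and -1.13. All these pairs kept opposite calls under every refit that tested the gene. ALOX5AP, which presents arachidonic acid to the leukotriene pathway, had 0.71 and -2.31, but its hairpin effect was not called without control 1 (adjusted p = 0.0948), control 2 (0.0535) or shTXNRD1 library 2 (0.0808).

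Other genes fell with the hairpin and rose with TRi-1. MT1E, a metallothionein and so a zinc and copper binding protein with close paralogs that can share its reads, stood at 47, 51.4 and 44.5 CPM in the controls and at 14.2, 10.3 and 8.28 CPM with the hairpin. It stood at 27.5, 41 and 44.3 CPM in DMSO and at 66.8, 75.2 and 64.2 CPM with TRi-1. Neither arm overlapped, and the difference was -2.99 ± 0.29 (adjusted p = 5.05e-06). DESI1, a protease for SUMO conjugates, had small errors, with effects of -0.84 ± 0.05 and 0.81 ± 0.05. LAMA3, a laminin chain, had -0.85 and 0.85. SRM, the spermidine synthase, had -0.87 and 0.87, and its difference of -1.74 was -0.99 with the GC offset, where the hairpin effect was -0.37. The TRi-1 effect on SRM was not called without DMSO 1 (adjusted p = 0.0543). TUBA4A, an alpha tubulin, had -2.14 and 0.77, the latter not called without DMSO 1 (adjusted p = 0.0585) or TRi-1 library 2 (0.0529). MUC1, a membrane mucin, had -1.08 and 0.82, and a difference of -1.89. None of these MUC1 values was called with the GC offset, which gave -0.40 for the hairpin (adjusted p = 0.229), 0.54 for TRi-1 (0.16) and -0.94 for the difference (0.0596).

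Genes that fell in both arms included some of the largest TRi-1 effects of the table. HBG2 and HBG1 encode the fetal gamma globins, which are nearly identical and can share reads. HBG2 stood at 22.7, 22.1 and 26.3 CPM in the controls and at 2.25, 3.37 and 2.58 CPM with the hairpin. It stood at 18.7, 15.8 and 18 CPM in DMSO and at 1.02, 1.06 and 1.35 CPM with TRi-1. Both treated groups lay below their controls without overlap, by 3.11 and 3.92. The difference of 0.81 ± 0.29 had an adjusted p of 0.0358 and was not called without control 1 or 2, shTXNRD1 2, DMSO 1 or 3, or TRi-1 1 or 2 (log2 values of 0.62 to 0.79, adjusted p of 0.0651 to 0.114). HBG1 had effects of -2.96 and -3.75, and their difference of 0.79 was not called (adjusted p = 0.262).

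LSAMP, a neural adhesion molecule of the immunoglobulin family, showed close agreement. It stood at 62.3, 58.5 and 65.1 CPM in the controls and at 9.3, 9.89 and 11.5 CPM with the hairpin. Its values were 71.8, 63.6 and 63.3 CPM in DMSO and 13.3, 12.2 and 12.4 CPM with TRi-1. Both arms fell several-fold without overlap, from controls at a like level (DMSO minus control 0.10), and the 95% interval of the difference ran from -0.47 to 0.05. With the GC offset that difference was -0.52 and was called, and it was also called, in the same direction, without shTXNRD1 library 3 (-0.31, adjusted p = 0.0417). SAA2, an acute-phase serum amyloid protein with a close paralog, fell from 29.9 to 8.12 CPM and from 27.3 to 8.23 CPM, with an interval of -0.43 to 0.13. RFTN2, a lipid raft protein, fell by 1.67 and 1.5, and its difference of -0.17 became -0.54 with the GC offset. MYH11, the smooth muscle myosin heavy chain, fell by 2.75 and 2.45, and ROBO2, a receptor for Slit guidance proteins, by 2.78 and 2.37 (-0.42 for the difference, -0.86 with the GC offset). The ROBO2 difference was not called without control 3, shTXNRD1 2, DMSO 2 or 3, or TRi-1 1 (adjusted p of 0.0588 to 0.0708).

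Several named genes that rose in both arms started from unequal controls, and the median DMSO minus control value over the 435 such genes was -0.21. NR3C2, the mineralocorticoid receptor, stood at 4.06, 4.45 and 5.15 CPM in the controls and at 17.8, 20.4 and 20.6 CPM with the hairpin. It stood at 1.3, 1.53 and 1.48 CPM in DMSO and at 3.61, 3.84 and 3.63 CPM with TRi-1. Each treated group lay above its own control, but the TRi-1 libraries lay below the senescent controls, since DMSO minus control was -1.65. The adaptor SH2D5 had effects of 2.00 and 1.80 with a DMSO minus control value of -1.64, and its difference of 0.20 was 0.82 and called with the GC offset. ANKRD1, a nuclear ankyrin repeat protein, had 1.86 and 1.13 with -0.77, and its difference of 0.74 was 0.48 with the GC offset. GPRC5A, a retinoic acid induced receptor, had 0.96 and 1.72 with -1.32, and here the TRi-1 effect was the larger one (difference -0.77 ± 0.11). The noncoding RNAs PDE7B-AS1 and LINC00452 had effects of 2.35 and 1.72, and of 1.5 and 0.99, with DMSO minus control at -2.17 and -0.11. How PDE7B-AS1 reads were separated from an overlapping gene is not known, since the strand used in counting is not given.

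**Figure D3:**
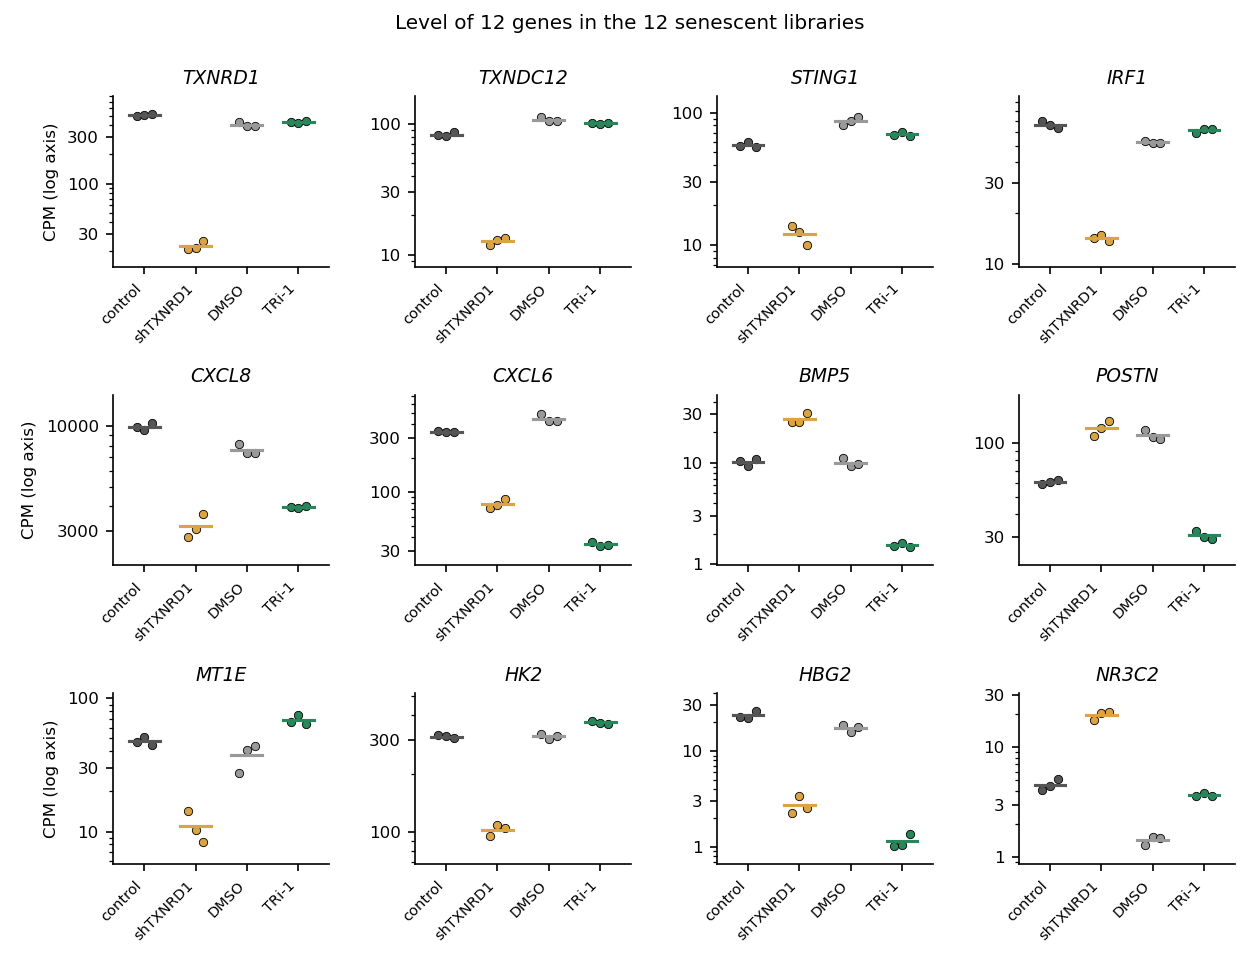
Level of 12 genes in CPM (log axis) in the 12 senescent libraries, 3 per group; points are libraries and bars group means. TXNRD1 and TXNDC12 are low with the hairpin alone, BMP5 and POSTN move in opposite directions in the arms, HBG2 and CXCL6 fall in both, and the 3 TRi-1 libraries of NR3C2 lie above DMSO and below the senescent control.

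Innate signalling is named in the title of the study, and several of its genes had the larger fall with the hairpin. STING1, the adaptor that relays cytosolic DNA sensing, stood at 55.7, 59.5 and 54.4 CPM in the controls and at 13.8, 12.5 and 9.91 CPM with the hairpin. It stood at 80.6, 86.8 and 91.8 CPM in DMSO and at 67.6, 71.9 and 66.6 CPM with TRi-1. The hairpin libraries were several-fold below their controls, the TRi-1 libraries slightly below theirs, and the difference was -1.90 ± 0.15 (adjusted p = 3.49e-07). Every DMSO and every TRi-1 library lay above every senescent control for STING1. The TRi-1 effect of -0.33 had an adjusted p of 0.0332 and was not called without control 1, shTXNRD1 2, DMSO 2 or 3, or any one TRi-1 library (adjusted p of 0.0504 to 0.12). CGAS, the DNA sensor upstream of STING1, had a difference of -0.28 ± 0.19 that was not called (adjusted p = 0.242), and it was -0.52 and called with the GC offset. In the list of nucleic acid sensing genes, 18 of 22 were tested, of which 1 was higher and 7 lower in the difference (2 and 6 with upper-quartile scaling), with a median of -0.37 against -0.03 over all genes. Over all genes tested, 22.1% were higher and 19.5% lower in the difference, and the counts of every list stand against these shares. For the hairpin effect the shares were 25.8% higher and 24.8% lower, and for the TRi-1 effect 7.64% and 12.2%.

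IRF1, an interferon regulatory factor that NF-kB and interferon both induce, stood at 69.5, 65.8 and 63.7 CPM in the controls and at 14.2, 14.8 and 13.6 CPM with the hairpin. It stood at 53.3, 51.7 and 51.7 CPM in DMSO and at 59.1, 63.1 and 62.9 CPM with TRi-1. IRF1 fell with the hairpin by 2.22 and was 0.24 higher with TRi-1, and the difference was -2.46 ± 0.10 (adjusted p = 9.38e-10). Every DMSO and every TRi-1 library lay below every senescent control, so TRi-1 was higher only relative to DMSO. The small TRi-1 rise was not called without any one of the DMSO libraries or TRi-1 2 or 3 (adjusted p of 0.0586 to 0.0956). GBP2, an interferon-induced GTPase, fell from 38.3 to 3.55 CPM with the hairpin and from 34.1 to 21.3 CPM with TRi-1 (difference -2.75). Of 37 interferon-stimulated genes tested, 20 fell with the hairpin and 16 with TRi-1, 12 of them in both. The median effects were -0.63 and -0.40, and the median of the difference was -0.05, a sign that turned positive with upper-quartile scaling. Its called members were 7 higher and 8 lower, near the background share in both directions, and 6 and 13 with the GC offset.

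Most of the interleukins and chemokines fell with the hairpin, and 12 of 24 fell with TRi-1. CXCL8, the neutrophil chemokine interleukin 8, stood at 9938, 9587 and 10322 CPM in the controls and at 2825, 3099.8 and 3656 CPM with the hairpin. It stood at 8119, 7369 and 7321 CPM in DMSO and at 3969, 3920.1 and 3999.7 CPM with TRi-1. CXCL8 fell by 1.64 and 0.94 without overlap in either arm, with a difference of -0.70 ± 0.15 that was -1.15 with the GC offset. IL1A, an early driver of the senescent secretome, fell by 1.49 and 0.43 (difference -1.06 ± 0.11). IL1B, the other interleukin 1, fell by 0.92 and 0.28 (difference -0.64 ± 0.09). CXCL10, an interferon-induced chemokine, fell from a mean of 81.8 to 12.6 CPM with the hairpin and from 57.3 to 45.1 CPM with TRi-1 (difference -2.36 ± 0.11). The TRi-1 effect on CXCL10 was -0.34, and -0.19 with the GC offset.

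IL6, a central cytokine of the senescent secretome, was a member of that group with like effects. It stood at 679, 678 and 723 CPM in the controls and at 473, 496 and 499 CPM with the hairpin. Its values were 509, 522 and 515 CPM in DMSO and 389, 393 and 399 CPM with TRi-1. Both arms fell without overlap, by 0.50 and 0.39, and the 95% interval of the difference was -0.26 to 0.03. With the GC offset the difference was -0.32 and was called (adjusted p = 0.0022). IL24 and CCL2 went in opposite directions in the arms. IL24, a cytokine of the interleukin 10 family, rose from 24.3 to 67 CPM with the hairpin and fell from 18.9 to 13.1 CPM with TRi-1. CCL2, a monocyte chemokine, fell by 0.88 with the hairpin and was 0.23 higher with TRi-1, from a DMSO level -1.25 relative to the control; that TRi-1 effect was not called without DMSO 1 (adjusted p = 0.0503).

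CXCL6, a further neutrophil chemokine, was an exception in that TRi-1 lowered it more. CXCL6 stood at 345, 337 and 338 CPM in the controls and at 71.6, 76.9 and 86.9 CPM with the hairpin. It stood at 485, 421 and 425 CPM in DMSO and at 35.9, 33.5 and 34.4 CPM with TRi-1. Both arms fell without overlap, by 2.12 and 3.68, and the difference was 1.57 ± 0.13 (adjusted p = 5.25e-07). Across the 24 interleukins and chemokines tested, 6 had a higher and 14 a lower value in the difference, with a median of -0.68. With the GC offset 4 were higher and 16 lower (median -0.44). DMSO was higher than the senescent control in 7 of the 24 and lower in 10 (8.36% and 7.87% of all genes tested). The hairpin effect was called lower in 20 and higher in 2, and the TRi-1 effect lower in 12 and higher in 1, with 11 in the same direction.

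Most NF-kB genes fell with the hairpin, and they were divided with TRi-1. Of 29 members tested, 5 were higher and 18 lower in the difference (median -0.85). With the GC offset 3 were higher and 16 lower (median -0.57), and the median hairpin effect was -0.37. DMSO was higher than the senescent control in 4 of the 29 and lower in 10 (8.36% and 7.87% of all genes tested), with a median of -0.21. The hairpin effect was lower in 20 and higher in 4 (median -0.65), whereas TRi-1 had 5 in each direction (median 0.02, and -0.01 with upper-quartile scaling). BIRC3, an NF-kB target that restrains cell death, stood at 53.1, 49.1 and 55.2 CPM in the controls and at 8.8, 8.88 and 9.07 CPM with the hairpin. It stood at 72.9, 65.5 and 67 CPM in DMSO and at 58.9, 61 and 58.6 CPM with TRi-1. BIRC3 fell with the hairpin, while its TRi-1 effect of -0.20 was not called, and the difference was -2.35 ± 0.13. The remaining members here were chosen after their values were seen. NFKBIA, the inhibitor that NF-kB induces, fell by 0.64 with the hairpin and rose by 0.21 with TRi-1. VCAM1, a leukocyte adhesion molecule, fell by 2.44 and 1.43. ICAM1, another such molecule, fell by 1.14 with the hairpin and had a TRi-1 effect of -0.08, with DMSO 0.85 above the control. PTGS2, the inducible cyclooxygenase, rose by 0.32 with the hairpin (0.08 with the GC offset) and fell by 0.81 with TRi-1, and its difference of 1.13 was 0.73 with the GC offset.

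The promoters of CXCL6 and BIRC3 are shown because these NF-kB targets differed in the arms in opposite ways. Each is the 250 bases before the RefSeq start in GRCh38.p14, 5′ to 3′ on the gene's strand, at chr4:73836428-73836677 (plus) and chr11:102317234-102317483 (plus), and capitals mark a match on either strand to the kappa B motif, read as 3 G, any 2 bases, 3 T and 2 C.
CXCL6: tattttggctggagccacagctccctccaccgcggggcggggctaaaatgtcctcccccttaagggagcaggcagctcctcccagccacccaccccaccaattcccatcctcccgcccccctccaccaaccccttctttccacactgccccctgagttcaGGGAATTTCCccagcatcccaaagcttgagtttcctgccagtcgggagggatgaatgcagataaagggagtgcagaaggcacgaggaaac
BIRC3: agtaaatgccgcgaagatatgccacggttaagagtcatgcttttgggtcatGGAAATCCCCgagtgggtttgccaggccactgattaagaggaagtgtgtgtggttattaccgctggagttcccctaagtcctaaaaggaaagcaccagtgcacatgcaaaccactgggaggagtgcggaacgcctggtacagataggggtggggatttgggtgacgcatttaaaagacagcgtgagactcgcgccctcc
This motif occurred in 1.73% of 27305 RefSeq promoter windows of that length, in 8 of 19 (42.1%) of the interleukin and chemokine promoters and in 6 of 26 (23.1%) of the NF-kB list's. A match is a description of the letters.

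The thioredoxin system had 25 members tested, 3 of them higher and 11 lower in the difference (median -0.42), against 22.1% and 19.5% of all genes tested. With the GC offset 3 were higher and 15 lower (median -0.34). The median hairpin effect of the list was -0.30, and -0.11 with the offset. TXNDC12, a thioredoxin-like protein of the endoplasmic reticulum, was, like TXNRD1, low with the hairpin alone. It stood at 82.9, 80.4 and 86.3 CPM in the controls and at 11.8, 12.9 and 13.4 CPM with the hairpin. It stood at 113, 106 and 106 CPM in DMSO and at 101, 100.3 and 102 CPM with TRi-1. The hairpin libraries stood far below the others, the TRi-1 effect of -0.10 was not called, and the difference was -2.61 ± 0.10 (adjusted p = 3.44e-10). TXN, the thioredoxin that TXNRD1 reduces, rose by 0.38 with the hairpin (0.21 with the GC offset) and 0.46 with TRi-1. The 95% interval of its difference was -0.35 to 0.19, and with the GC offset the difference was -0.34 and called. TXNRD2, the mitochondrial reductase, had a difference of -0.73 ± 0.25 (adjusted p = 0.0325) that was -0.05 with the GC offset. It was also not called without control 1 or 2, shTXNRD1 3, DMSO 1, or TRi-1 2 or 3 (log2 values of -0.74 to -0.55, adjusted p of 0.0575 to 0.0803). SEPHS2, which makes selenophosphate for selenoproteins, had a difference of -0.50 ± 0.10. Of 20 selenoprotein genes tested, 3 were higher and 4 lower, near the shares over all genes, and 1 and 7 with the GC offset.

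The targets of NRF2, the transcription factor of oxidative and electrophile stress, were called in both directions. Of 34 tested, 4 were higher and 11 lower in the difference (median -0.29), against 22.1% and 19.5% of all genes tested. With the GC offset 5 were higher and 17 lower (median -0.32). DMSO was higher than the senescent control in 1 of the 34 and lower in 9, with a median of -0.26. Of all genes tested, 8.36% were higher and 7.87% lower in DMSO. The hairpin effect was higher in 5 and lower in 12, and the TRi-1 effect higher in 3 and lower in 6. Over all genes tested the hairpin was called higher in 25.8% and lower in 24.8%, and TRi-1 in 7.64% and 12.2%. The TRi-1 counts of this list were not far from those shares. AKR1B1, an aldose reductase, fell from 1766 to 880.2 CPM with the hairpin and rose from 1243 to 1611 CPM with TRi-1 (difference -1.38 ± 0.08). Its DMSO and TRi-1 means both lay below the senescent control mean. AKR1C1, a related reductase with close paralogs, fell in both arms and further with TRi-1, by 0.54 and 1.52. SLC7A11, the cystine importer, rose by 1.05 with the hairpin and had a TRi-1 effect of 0.09, from a DMSO level -1.58 relative to the control. The difference was 0.97 ± 0.14 and 0.53 with the GC offset. NQO1, a quinone reductase, had a difference of -0.18 ± 0.12 that was not called, and was -0.36 and called with the offset. HMOX1, haem oxygenase, had -0.84 ± 0.23, from a hairpin effect of -0.35 (adjusted p = 0.0828) and a TRi-1 effect of 0.49 (adjusted p = 0.0492). The HMOX1 difference was -0.44 with the offset. Its TRi-1 effect was not called with limma-voom (adjusted p = 0.0836), nor without control 1 or 2, shTXNRD1 2 or any one DMSO or TRi-1 library (adjusted p of 0.0563 to 0.15). SRXN1, the sulfiredoxin, chosen after its values were seen, rose by 0.42 with TRi-1 and had a hairpin effect of -0.12 (adjusted p = 0.0962).

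Of 9 metallothionein and zinc transport genes, 4 were tested, 3 of them lower and 1 higher in the difference. MT1E is given above. MT1X and MT2A, chosen after their values were seen, had differences of -1.19 ± 0.40 and -1.72 ± 0.60 (adjusted p = 0.0303 and 0.0367). Leaving out control 1 or 2, shTXNRD1 2, DMSO 1, or TRi-1 1 or 2 ended the call for MT1X (log2 values of -1.20 to -1.08, adjusted p of 0.0526 to 0.0728). The same libraries, and also shTXNRD1 3 and DMSO 2, ended that for MT2A (-1.79 to -1.46, adjusted p of 0.0572 to 0.0888). SLC30A1, the zinc exporter, went the other way, with a hairpin effect of 0.64 (0.43 with the GC offset), a TRi-1 effect of 0.08 and a difference of 0.56 ± 0.14 that was 0.19 with the GC offset. The MT1X promoter is shown because metallothionein promoters carry repeated copies of one short metal response element. It lies at chr16:56682220-56682469 (plus) in GRCh38.p14, and capitals mark TGCACNC or TGCGCNC on either strand.
MT1X: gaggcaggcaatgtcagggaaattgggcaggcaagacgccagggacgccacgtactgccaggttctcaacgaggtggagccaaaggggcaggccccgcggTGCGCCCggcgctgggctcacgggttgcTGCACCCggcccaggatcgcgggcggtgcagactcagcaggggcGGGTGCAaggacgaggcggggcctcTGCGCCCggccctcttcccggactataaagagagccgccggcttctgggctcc
It holds 4 such matches. At least 1 match occurred in 24.7% of all promoter windows and in the 3 of 3 list members with a window.

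Cholesterol synthesis genes differed in 1 direction. None of 23 genes tested was higher and 18 were lower, with a median of -0.85. The hairpin effect was lower in 20 and higher in none (median -0.63), and TRi-1 was higher in 4 and lower in none (median 0.19). IDI1, the isopentenyl isomerase of the mevalonate pathway, stood at 96.7, 93.9 and 98.6 CPM in the controls and at 22.3, 23.5 and 27.9 CPM with the hairpin. It stood at 62.2, 56.1 and 55.4 CPM in DMSO and at 65.6, 66.1 and 66.2 CPM with TRi-1. Neither arm overlapped, and the DMSO and TRi-1 libraries both lay below the senescent controls. IDI1 fell by 1.97 with the hairpin and had a TRi-1 effect of 0.19, which was not called (adjusted p = 0.128), and the difference was -2.16 ± 0.12 (adjusted p = 1.10e-08). The next pair of genes was chosen after their values were seen. HMGCS1, the synthase that feeds the mevalonate pathway, had effects of -2.22 and 0.05, and FDPS, the farnesyl diphosphate synthase, -0.56 and 0.39, the latter 0.27 and not called with the GC offset.

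The controls differed for the same genes. DMSO was lower than the senescent control in 19 of the 23 (7.87% of all genes tested), with a median of -0.67. The median DMSO minus control value was thus of the size of the median hairpin effect. For IDI1 the DMSO value was -0.74 relative to the control, and for HMGCS1 -1.02. The hairpin libraries were compared with the controls at the higher level and the TRi-1 libraries with the DMSO libraries at the lower one. The part of this in the list's difference cannot be told apart from the treatments, because no group had the hairpin with DMSO. With the GC offset the median difference was -0.67.

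The promoters of HMGCS1 and FDPS are shown because sterol genes are known for paired regulatory boxes near the start, among them the CCAAT box. They lie at chr5:43313413-43313662 (minus) and chr1:155308616-155308865 (plus) in GRCh38.p14, and capitals mark CCAAT on either strand.
HMGCS1: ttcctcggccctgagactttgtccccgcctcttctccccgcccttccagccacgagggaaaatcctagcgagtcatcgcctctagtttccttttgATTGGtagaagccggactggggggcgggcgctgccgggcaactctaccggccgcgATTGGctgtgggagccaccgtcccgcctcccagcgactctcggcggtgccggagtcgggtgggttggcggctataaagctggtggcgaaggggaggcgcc
FDPS: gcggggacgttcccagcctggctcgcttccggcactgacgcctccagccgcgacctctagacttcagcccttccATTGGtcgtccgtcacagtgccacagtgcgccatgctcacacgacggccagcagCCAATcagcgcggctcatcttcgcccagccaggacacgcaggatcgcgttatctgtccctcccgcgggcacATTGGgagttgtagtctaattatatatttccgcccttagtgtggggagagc
HMGCS1 holds 2 and FDPS 3 matches. CCAAT occurred in 33% of all 27305 windows and in 15 of 18 (83.3%) of the list's.

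Glycolysis genes differed in the same sense, with 3 of 24 higher and 14 lower (median -0.65), and 6 had opposite called effects. HK2, the hexokinase of the first step, stood at 316, 311 and 304 CPM in the controls and at 95.7, 109 and 105 CPM with the hairpin. It stood at 320.0, 303 and 312 CPM in DMSO and at 372, 366 and 362 CPM with TRi-1. HK2 fell with the hairpin, rose slightly with TRi-1 and did not overlap in either arm, and the difference was -1.82 ± 0.08, from controls at a like level. SLC2A3, a glucose transporter, went the other way, with a rise of 1.62 with the hairpin and a TRi-1 effect of -0.25 (difference 1.88 ± 0.10). That TRi-1 effect was not called without DMSO 1 or 2, or TRi-1 1 or 3 (adjusted p of 0.054 to 0.0964). PKM and GAPDH, chosen after their values were seen, fell with the hairpin by 1.40 and 1.03 and had TRi-1 effects of 0.42 and 0.21; the GAPDH difference of -1.24 was -0.81 with the GC offset. GAPDH has many processed pseudogenes that can share its reads.

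**Figure D4:**
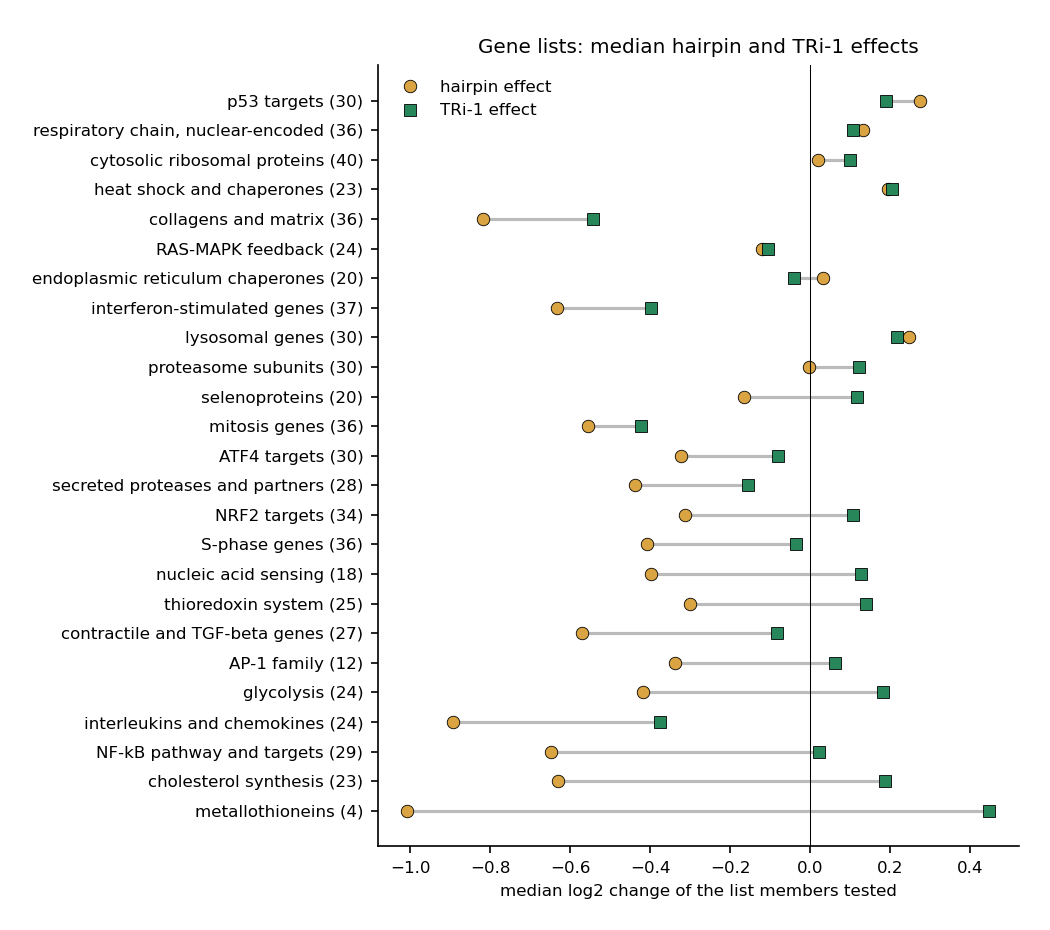
Median hairpin effect (circles) and median TRi-1 effect (squares), in log2 units, of the members tested in 25 gene lists, with the number tested in parentheses; lists are ordered by the median difference between the effects. Metallothioneins, cholesterol synthesis and glycolysis have hairpin medians below 0 and TRi-1 medians above 0, while collagens and interferon-stimulated genes have both below 0.

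Most collagens and other matrix genes fell in each arm. Of 36 tested, 26 fell with the hairpin and 24 with TRi-1, 17 of them in both, and the median effects were -0.82 and -0.54. The difference was called higher in 14 and lower in 9, with a median of -0.02 that turned positive with upper-quartile scaling, and also with the GC offset and without the low-GC libraries. COL8A1, a network-forming collagen, fell by 2.07 and 1.1 (difference -0.98 ± 0.06). Among 27 contractile and TGF-beta genes, 5 were higher and 16 lower in the difference (median -0.49). TPM1, a tropomyosin of actin filaments, fell by 1.63 with the hairpin and 0.31 with TRi-1. VCL, the focal adhesion protein vinculin, fell by 0.40 with the hairpin and rose by 0.18 with TRi-1. SERPINE2, an inhibitor of thrombin and urokinase, fell from 836 to 234 CPM and from 844 to 514 CPM, and CTSL, the lysosomal protease cathepsin L, rose by 1.22 and 0.34. Of 28 secreted proteases and partners, 7 were higher and 11 lower in the difference (22.1% and 19.5% of all genes tested), and 9 and 8 with upper-quartile scaling.

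VIM, the mesenchymal intermediate filament vimentin, is itself a fibroblast marker. It fell from 2874 to 1188 CPM with the hairpin, and had 3502 and 3891 CPM in DMSO and TRi-1 (difference -1.43 ± 0.06). Of the 8 fibroblast markers, 4 were higher and 3 lower in the difference.

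Genes of DNA replication fell mainly with the hairpin and mitosis genes in each arm. Of 36 S-phase genes, 5 were higher and 14 lower in the difference (median -0.34), against 22.1% and 19.5% of all genes tested. In this list 20 fell with the hairpin and 2 with TRi-1, against 24.8% and 12.2% of all genes. CDC6, which loads the replicative helicase, fell by 1.61 with the hairpin and had a TRi-1 effect of 0.02. CCNE1, the cyclin of S-phase entry, fell by 1.37 and had 0.21 with TRi-1 (difference -1.59 ± 0.15). Mitosis genes fell in 21 of 36 with the hairpin and 23 with TRi-1, 16 of them in both. The difference was higher in 7 and lower in 12 of the mitosis genes (median -0.13), and in 5 and 18 with the GC offset (median -0.26). BIRC5, the survivin of the chromosomal passenger complex, fell from 7.04 to 1.38 CPM with the hairpin and had a TRi-1 effect of -0.27 (difference -2.08 ± 0.17). DMSO was higher than the senescent control in 27 of the 36 mitosis genes (8.36% of all genes tested), with a median of 0.57, beside a median TRi-1 effect of -0.42.

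More p53 targets were higher than lower in the difference. Of 30 tested, 12 were higher and 5 lower in the difference (median 0.16), against 22.1% and 19.5% of all genes tested. There were 15 up and 4 down for the hairpin and 6 up and 1 down for TRi-1. TP53INP1, a p53-induced nuclear protein, rose by 1.18 with the hairpin and had a TRi-1 effect of -0.15. TNFRSF10B, a TRAIL death receptor, rose by 0.79 with the hairpin (difference 0.65 ± 0.06). CDKN1A, the cell-cycle inhibitor p21, had no called effect in either arm and a difference of -0.21 ± 0.13, which had the opposite sign and was called with the GC offset (0.19, adjusted p = 0.0379), where the hairpin effect of 0.29 was called too. CDKN2A, the locus of p16, rose by 0.83 with the hairpin (1.26 with the GC offset) and 0.34 with TRi-1 (difference 0.49 ± 0.12, and 1.13 with the GC offset). Without DMSO 1 the TRi-1 effect on CDKN2A was not called (0.26, adjusted p = 0.0554), nor was it with the GC offset (0.13).

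Heat shock and chaperone genes had like median effects in both arms. Of 23 tested, 12 rose and 3 fell with the hairpin and 9 rose and none fell with TRi-1, with median effects of 0.20 in each arm. DMSO was lower than the senescent control in 5 of the 23 and higher in none, with a median of -0.18. The arms thus started from unlike levels, and the part of this in the TRi-1 effects was not tested. The difference was called higher in 5 and lower in 5, with a median of -0.01 that turned positive with upper-quartile scaling. The counts were 7 higher and 4 lower with that scaling and 3 and 8 with the GC offset. CRYAB and HSPB8, small heat shock proteins, were exceptions. CRYAB fell by 1.52 with the hairpin and had a TRi-1 effect of 0.02, and HSPB8 fell by 0.61 and rose by 0.53. Both had lower levels in DMSO than in the senescent control, by -0.63 and -0.69.

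**Figure D5:**
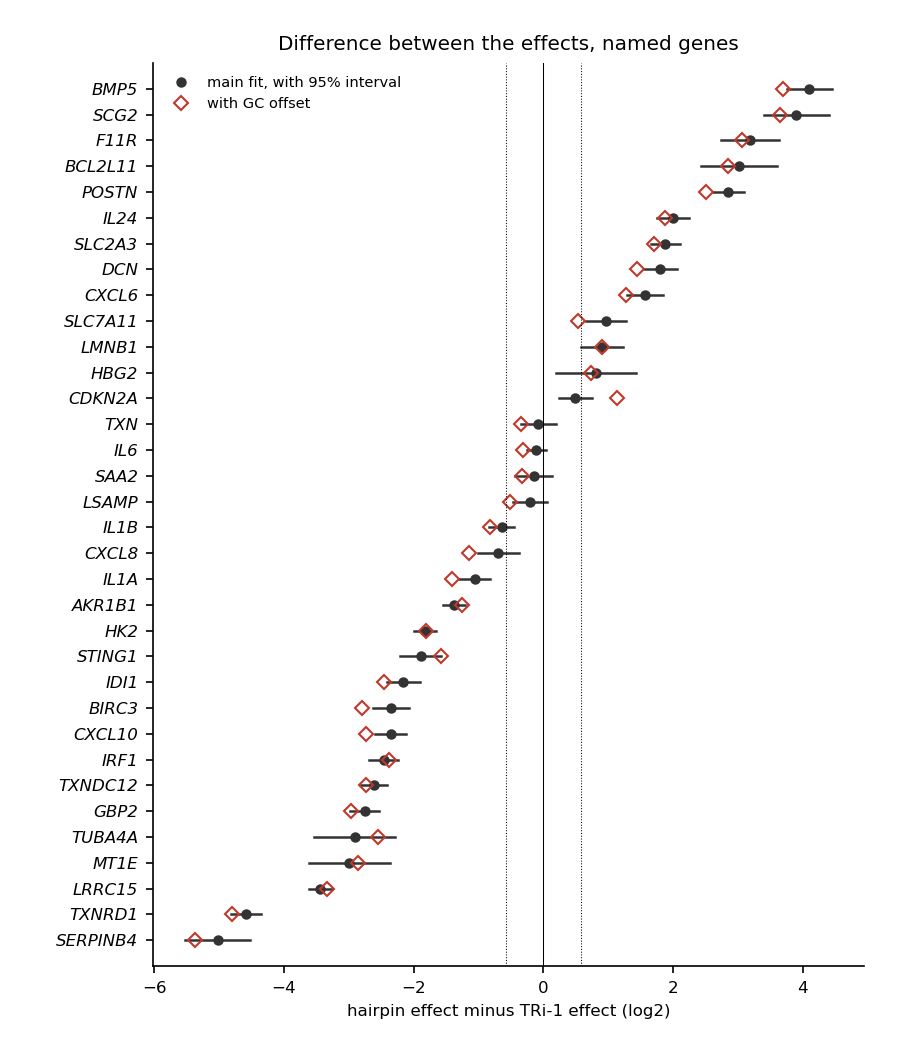
Hairpin effect minus TRi-1 effect for 34 named genes, in log2 units, with 95% intervals (lines) and the value with a GC offset (diamonds); dotted lines mark 1.5-fold. TXNRD1 and SERPINB4 lie lowest and BMP5 highest, while IL6, LSAMP, SAA2 and TXN have intervals within the dotted lines.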

How the data were processed

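IMR90 RNA was purified on columns, treated with DNase, prepared with a KAPA RNA HyperPrep kit and read in 75-bp pairs on a NextSeq 500, per the labels. The authors deposited unscaled whole-number counts for each Ensembl gene in each library. RSEM 1.2.3, DESeq2 and the builds hg19 and mm10 are named in the submitters' processing notes, without their roles. For aligner, annotation and counting strand, no statement was found in the labels or headers (not given in the sources used here). Symbols were found for 52301 genes, genes without one held 0.680% of counts, and no mitochondrially encoded gene was in the table. Counts were fitted with edgeR 4.0.16 in R 4.3.3 (TMM, filterByExpr by group, robust quasi-likelihood F test, two-sided) over all 15 libraries with a coefficient per group and 10 residual degrees of freedom, and p-values were adjusted by Benjamini-Hochberg over 15994 genes.

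The difference was tested as an interaction contrast. An exact permutation test of 3 libraries against 3 cannot go below p = 0.1, and the model instead borrows its estimate of the spread from all genes. Intervals and floors cover counting error or the fitted spread only. Alternatives were RLE and upper-quartile scaling, other filters, DESeq2 1.42.0, limma-voom (limma 3.58.1), the senescent libraries alone, a replicate block, a GC offset (a spline of transcript GC with 5 degrees of freedom in each library, from GENCODE, for the 96.5% of genes with a value), a 2-fold minimum and each library left out. The fit was tested on simulated data.

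Named genes were a panel of 17, the 8 largest differences each way, 6 opposite and 6 same-direction genes each way, 4 close genes (mean log2 CPM of at least 1) and the 2 members of each of 29 lists with the smallest p of the difference; not every one is printed, and other genes are marked as chosen after their values were seen. The members and lists were chosen with earlier results of these data known. Promoters are from RefSeq (GRCh38.p14), matched by symbol.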

Additional observations from a re-analysis of the deposited data

How the results depend on the processing

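In 23 refits (other scalings, filters and tools, each library left out, GC and block terms), 3566 (53.5%) of the calls of the difference, 288 (33.8%) of the opposite genes and 573 (44.0%) of the same-direction genes were made every time. Leaving out 1 library at a time gave 3012 to 3987 genes higher and 2691 to 3897 lower in the difference, 3586 to 4412 and 3520 to 4549 for the hairpin, 772 to 1537 and 1372 to 2349 for TRi-1, and 893 to 1682 and 842 to 1612 for DMSO against control. The same range was 958 to 1534 for same-direction genes, 525 to 1089 for opposite, 3513 to 5006 for hairpin-only, 382 to 748 for TRi-1-only and 401 to 745 for close genes. At a 2-fold minimum, which admits fewer genes by construction, the counts were 953 and 1261 (difference), 724 and 1430 (hairpin), 65 and 318 (TRi-1), 149 and 134 (controls), 159 same, 20 opposite, 1323 hairpin-only, 105 TRi-1-only and 12 close. Without a filter on low counts 812 genes were higher with TRi-1, and the differences of MT1X (adjusted p = 0.0897) and MT2A (0.109) and the TRi-1 effects on HK2 (0.0521), VCL (0.162), NFKBIA (0.104), CCL2 (0.0636) and IRF1 (0.0937) were not called. With the GC offset the counts that moved were 2752 higher with TRi-1, 2468 and 2680 for the controls, 2490 same, 1582 opposite and 1470 close, and CDKN1A had a difference of 0.19. The causes were not tested.

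A replicate block gave 3292 genes higher and 2864 lower in the difference and moved no count by more than 1.5 times. Deviations from the group mean had correlations of -0.75 to 0.62 between libraries that share a replicate number. The libraries also differed along GC content, so these correlations cannot tell whether same-numbered libraries come from a shared culture. Among named results, the block left uncalled the differences of MT2A (-1.69, adjusted p = 0.0641) and HBG2 (0.82, 0.0513) and the TRi-1 effects on STING1 (-0.33, 0.0524) and HMOX1 (0.48, 0.0696). With the replicate block and the GC offset together the counts were 2613 higher with TRi-1, 2332 and 2511 for the controls, 2363 same, 1494 opposite and 1390 close, and CDKN1A was 0.19. Leaving out together the library of each of 3 groups that leaned most towards low GC (senescent control 3, shTXNRD1 3 and DMSO 1), an alternative chosen after seeing the data, gave 2617 higher and 2550 lower. In the simulation of the difference, the fit called 24% of 1.5-fold, 78% of 2-fold and 98% of 4-fold changes, with 6 false calls among the unchanged genes. At this depth a missed call thus does not exclude a change of 1.5-fold. The simulated data held far fewer changed genes than were called here, all above a mean log2 CPM of 1. They had the same spread in every group and no GC shifts, so these numbers need not carry over to the real libraries.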

Other observations

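The lists not described above had medians of the difference from -0.52 (AP-1 family) to 0.07 (respiratory chain). Over all genes tested, 22.1% were higher and 19.5% lower in the difference. Of 30 lysosomal genes tested, 15 rose and 6 fell with the hairpin, 12 rose and 1 fell with TRi-1, and the difference was higher in 9 and lower in 5 (median -0.07, which turned positive with upper-quartile scaling and with the GC offset). NPC2, which carries cholesterol out of lysosomes, fell by 1.40 with the hairpin and rose by 0.36 with TRi-1 (difference -1.77 ± 0.09). Of 30 proteasome subunits, the difference was higher in 2 and lower in 10, a balance of 6 and 6 with upper-quartile scaling and of 3 and 18 with the GC offset. PSMD2, a subunit of the regulatory particle, fell by 0.30 with the hairpin (-0.20 with the GC offset) and rose by 0.31 with TRi-1. Of 36 nuclear-encoded respiratory chain genes, 13 rose and none fell with the hairpin, 3 rose and none fell with TRi-1, and the difference was higher in 10 and lower in 2. With upper-quartile scaling these counts were 14 and 0, and with the GC offset 7 and 7. UQCRC2, a core subunit of complex III, rose by 0.45 with the hairpin and had a TRi-1 effect of -0.11 (adjusted p = 0.352). Of 40 cytosolic ribosomal protein genes, many of which have processed pseudogenes, the difference was higher in 4 and lower in none, and in 3 and 1 with the GC offset.

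Of 30 genes of the ATF4 stress response tested, 6 were higher and 11 lower in the difference, with a median of -0.18 that turned positive with the GC offset, where 11 were called each way. PSAT1, an enzyme of serine synthesis, fell by 1.87 with the hairpin and had a TRi-1 effect of -0.30 (adjusted p = 0.0623), which was -0.20 and called with the GC offset. Of 20 endoplasmic reticulum chaperones, 6 were higher and 2 lower, and 6 each way with the GC offset, and PDIA3, a disulfide isomerase, had a difference of 0.67 ± 0.11 that was 0.43 with the GC offset. Feedback genes of RAS and MAPK signalling were divided, with 6 of 24 higher and 8 lower, and 8 and 7 with the GC offset. SPRY4, an inhibitor of receptor tyrosine kinase signalling, fell by 1.56 with the hairpin (difference -1.46 ± 0.07), whereas DUSP5, a phosphatase for nuclear ERK, rose by 1.43 (difference 1.38 ± 0.07). Of 12 AP-1 family genes tested, none was higher and 6 were lower in the difference. In the fit with the GC offset 3 AP-1 genes were called each way and the median was -0.10, and without the libraries that leaned most towards low GC 2 were higher and 3 lower.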
